A study of Homo sapiens with 6 samples.

Results

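The genes described here are the H1, H3 and H4 genes of the human histone gene clusters, picked with earlier results of these data known. By a name rule, they are the protein-coding genes whose GENCODE 29 names begin with HIST1H1, HIST1H3, HIST2H3, HIST3H3, HIST1H4, HIST2H4 or HIST4H4. The rule took 36 of the 58735 genes in the table, 6 for H1, 15 for H3 and 15 for H4. Current symbols are used, such as H1-2 for HIST1H1C. RNA was taken from the human gastric cancer line HGC27. The ARV-825 treatment group, with ARV125nM in its titles for the dose, had received the drug for 48 h according to the labels (n = 3 libraries). The control group is given as 0 nM in the labels and as DMSO in the methods, with no time stated (n = 3 libraries). ARV-825 is a degrader that brings the BET proteins to cereblon, which belongs to a ubiquitin ligase.

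Cluster histone genes supply the bulk of new histone protein when a cell copies its DNA. H3 and H4 pair in the core of the nucleosome, and H1 binds the linker DNA where the strand enters and leaves it. Their genes have short transcripts, usually without introns, and most of these mRNAs end in a short stem-loop in place of a poly(A) tail. The stem-loop binding protein SLBP and the U7 particle cut the transcript just past that hairpin. Some cluster genes are also known to give transcripts that run past the hairpin and carry a tail.

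The library kit named in the labels, TruSeq RNA, is of a type that selects RNA with a tail and does not mark the strand. The values are FPKM, fragments per kilobase of exon on a depth scale the authors set for each library. A single fragment on a gene of 1 kb was worth 0.0665 to 0.0686 FPKM in the ARV-825 libraries and 0.0495 to 0.0581 FPKM in the DMSO libraries. Fragments in genes numbered 14821971 to 15201942 in the ARV-825 libraries and 16626609 to 19145661 in the DMSO libraries. Mitochondrial genes took 9.84% to 12.0% of them in ARV-825 libraries and 5.62% to 6.24% in DMSO libraries. Beyond a scaling without these genes, given further on, the part of this difference in the histone values was not tested. The sources do not state separate cultures for the 3 libraries of a group, and the p-values therefore cover only the spread between libraries, which may be technical. Of 10 markers of gastric epithelial cells, none reached a mean of 1 FPKM. Their sum was 0.800 to 0.976 FPKM in ARV-825 libraries and 0.282 to 0.399 FPKM in DMSO libraries, and 2 of the 10 were at 0 in all 6. The 4 mesenchymal markers summed to 254 to 258 FPKM in ARV-825 libraries and 278 to 290 FPKM in DMSO libraries, most of it VIM, and each was lower in ARV-825 libraries without overlap. VIM averaged 247 FPKM in ARV-825 libraries and 269 FPKM in DMSO libraries, ZEB1 7.52 FPKM in ARV-825 libraries and 11.1 FPKM in DMSO libraries, and FN1 1.99 FPKM in ARV-825 libraries and 4.76 FPKM in DMSO libraries. CDH2 had 0 fragments in ARV-825 libraries and 16 in DMSO libraries. All 5 fibroblast markers were lower, with sums of 85.8 to 87.4 FPKM in ARV-825 libraries and 246 to 247 FPKM in DMSO libraries. The 5 immune markers summed to 0.763 to 1.07 FPKM in ARV-825 libraries and 1.38 to 1.84 FPKM in DMSO libraries, and 4 endothelial markers to at most 0.0524 FPKM in any library. The part of these markers in the histone values was not tested.

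The hairpin at the end of a histone message could be read from the annotated transcripts of 13 members. It was searched for as a stem of 6 bases that starts with GG, closed by its complement around a loop of 4 bases that starts with TT, within 100 bases after the stop codon. Among 53027 protein-coding transcripts with at least 100 bases after the stop codon, 0.0566% held it. The examples below are from genes whose levels are described further on. The GG, the TT and the matching stem were required by the search, so only the other letters can show likeness between H3 and H4. Capitals mark stem and loop, written as DNA in the direction of the mRNA. All lie in the 3' untranslated part of the exon that holds the stop codon, on chromosome 6 except for H4C15 on chromosome 1 and H4C16 on chromosome 12.
H3C10: cccaaaGGCTCTTTTCAGAGCCacccac
H3C8: taaaaaGGCTCTTTTAAGAGCCgcctac
H4C8: accaaaGGCCCTTTTCAGGGCCgcccac
H4C5: atcaaaGGCCCTTTTCAGGGCCgcccac
H4C9: taaaaaGGCCCTTTTTAGGGCCcctaag
H4C15: cccaaaGGCCCTTTTTAGGGCCgaccac
H4C16: ccaaaaGGCCCTTTTCAGGGCCcccaaa
In 10 members the annotated transcript ran more than 100 bases past this hairpin, and in 7 members with the hairpin AATAAA, the signal for adding a tail, lay within its last 50 bases, as it did in H3C6, for which no hairpin was found. The transcripts of H3C10, H4C8 and H4C5 ran 769, 630 and 1022 bases past it.

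Upstream of the start, the families carry different short elements. The TATA box sets the start of transcription, the CCAAT box binds NF-Y, the letters AAACACA are the H1 box, and GGTCCG lies in the H4 element that HINFP reads. In the 250 bases before the RefSeq start (GRCh38.p14, both strands searched), 32 of the 36 members had an entry. AAACACA was found in 6 of 6 H1 promoters, 0 of 13 H3 promoters and 0 of 13 H4 promoters, against 4.82% of 35116 promoters of all genes. GGTCCG was found in 12 of 13 H4 promoters, 1 of 13 H3 promoters and 0 of 6 H1 promoters, against 9.43% of all. CCAAT was found in 6 of 6 H1, 13 of 13 H3 and 3 of 13 H4 promoters, against 32.0% of all. TATAAA was found in 3 of 6 H1, 11 of 13 H3 and 7 of 13 H4 promoters, against 10.7% of all. The E2F sites TTTCGCGC or TTTGGCGC were found in 1 of the 32, the promoter of H3C7, against 0.968% of all. In H3C7 the reverse of GGTCCG and a CCAAT box overlap. The 150 bases before the start of the leading gene of each family are given with these letters in capitals.
H1-2, chr6:26056471-26056620, minus strand: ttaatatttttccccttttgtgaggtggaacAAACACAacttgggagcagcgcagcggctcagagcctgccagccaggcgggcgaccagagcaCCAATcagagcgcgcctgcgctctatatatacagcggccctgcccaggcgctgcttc
H3C10, chr6:27809901-27810050, plus strand: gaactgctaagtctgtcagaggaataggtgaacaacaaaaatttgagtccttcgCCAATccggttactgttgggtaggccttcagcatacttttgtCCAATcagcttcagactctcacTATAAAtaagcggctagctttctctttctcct
H4C8, chr6:26285535-26285684, minus strand: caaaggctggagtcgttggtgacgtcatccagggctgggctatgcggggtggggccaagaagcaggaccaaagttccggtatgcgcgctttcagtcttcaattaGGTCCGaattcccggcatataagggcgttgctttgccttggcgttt
In H1-2 the capitals are the H1 box and a CCAAT box, in H3C10 a pair of CCAAT boxes and a TATA box, and in H4C8 the H4 element. These matches describe letters and not bound sites.

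Taken as a whole, cluster H1, H3 and H4 transcripts made up a far larger share of the fragments in ARV-825 libraries than in DMSO libraries. Per 1000000 fragments in genes, they numbered 905 ± 36.3 in ARV-825 libraries and 34.0 ± 1.45 in DMSO libraries (SD, n = 3 each), which is 26.6-fold higher. The 3 ARV-825 libraries held 12802, 14024 and 13762 fragments of these genes, against 593, 537 and 666 in the 3 DMSO libraries. H1 genes alone numbered 311 ± 2.45 on the same scale in ARV-825 libraries and 13.0 ± 0.240 in DMSO libraries, 23.9-fold higher. H3 genes numbered 210 ± 7.45 in ARV-825 libraries and 6.38 ± 0.167 in DMSO libraries, 32.8-fold higher. H4 genes numbered 384 ± 27.2 in ARV-825 libraries and 14.6 ± 1.33 in DMSO libraries, 26.4-fold higher. In RNA from bulk cells, more cells that hold these transcripts and more transcripts per cell cannot be told apart. The values are shares of fragments from a kit of a type that selects RNA with a tail, so total histone mRNA was not measured.

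Gene by gene, the 2 groups did not overlap for 29 of the 36 members, and ARV-825 was the higher group in each of them. Of the 34682 genes above 0 in at least 1 library, 26.2% had every ARV-825 library above every DMSO library. The exact two-sided permutation test gives p = 0.1 for such a gene, the smallest that 3 against 3 allows. limma was run on log2(FPKM + 1) over the 13442 genes with a mean of at least 1 FPKM, with Benjamini-Hochberg adjustment over all of them. Of the members, 23 entered the test and 22 rose at an adjusted p under 0.05, where 37.0% of all genes tested did. With a log2 fold change above 1 as well, 21 rose, against 8.81% of all genes tested and 5.6% of the protein-coding ones. Among the 23, groups did not overlap for 22, against 38.5% of all genes tested with ARV-825 as the higher group. No member was called lower, with a count of 0 also at an unadjusted p under 0.05 and by limma-voom on the recovered fragments, while 40.2% of all genes tested were. The 23 had a median log2 fold change of 2.85, beside -0.02 for all genes tested. These counts carry the mark of the filter, since 18 of the 23 had a DMSO mean under 1 FPKM and entered through their ARV-825 values. Of all 1002 genes that entered in that way, 85.6% were called higher. The other 5 members, H1-2, H1-4, H3C10, H4C9 and H4C1, had a DMSO mean of at least 1 FPKM, and 4 of them rose. With no filter, 34 members entered and 26 rose, against 20.7% of all genes, with a median of 1.91. By limma-voom on all genes with at least 10 fragments, 30 members entered and 26 rose, against 31.3% of all genes.

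**Figure D1:**
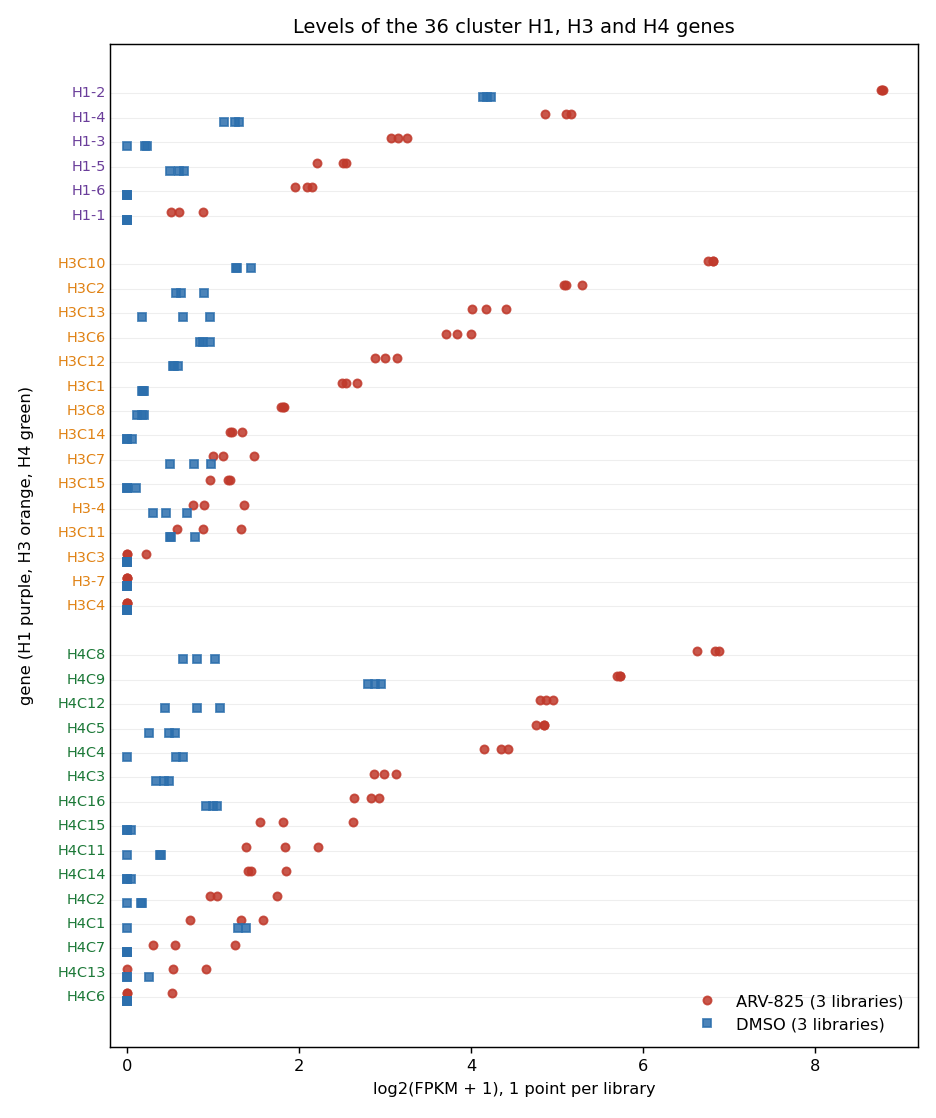
Levels of the 36 members in each library, as log2(FPKM + 1) on the horizontal axis, with ARV-825 libraries as red circles above DMSO libraries as blue squares for each gene, grouped by family. The red points lie to the right of the blue ones for 29 genes, and H1-2 reached 433 to 440 FPKM in ARV-825 libraries, against 16.5 to 17.8 FPKM in DMSO libraries.

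H1-2 was the most abundant member in both groups. This somatic linker histone (ENSG00000187837, GRCh38 chromosome 6, 26055787 to 26056428, minus strand) is annotated as a transcript that is coding throughout. It measured 440, 439 and 433 FPKM in ARV-825 libraries, against 17.8, 17.2 and 16.5 FPKM in DMSO libraries. The libraries of each group lay close together and far from the other group. H1-2 rose by 4.59 ± 0.0362 on the log2 scale (SE), or 25.5-fold between mean FPKM values (limma adjusted p = 1.96e-08).

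The other somatic H1 genes stood lower and moved the same way. H1-4 measured 28.0, 33.2 and 34.7 FPKM in ARV-825 libraries, against 1.18, 1.46 and 1.38 FPKM in DMSO libraries, a log2 fold change of 3.81 ± 0.0882 (SE, limma adjusted p = 2.18e-07). H1-3 measured 8.55, 7.89 and 7.39 FPKM in ARV-825 libraries, against 0, 0.174 and 0.149 FPKM in DMSO libraries, where 4 fragments stand behind the values (log2 fold change 3.01 ± 0.0876). H1-5 had the smallest change of the 5 H1 genes tested, with 3.63, 4.69 and 4.82 FPKM in ARV-825 libraries against 0.410, 0.512 and 0.582 FPKM in DMSO libraries (log2 fold change 1.83 ± 0.106). None of these genes overlapped between groups.

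H1-6 and H1-1 went undetected in the DMSO libraries. H1-6, the testis H1t, measured 3.25, 2.87 and 3.43 FPKM in ARV-825 libraries and had no fragment in any DMSO library. With 101 fragments in ARV-825 libraries, it was at least 42.1-fold higher than a floor of 3 fragments over the DMSO group. H1-1 measured 0.423, 0.513 and 0.844 FPKM in ARV-825 libraries and 0 in the DMSO libraries. On 17 fragments it was at least 7.09-fold higher than the same floor, and its mean was too low for the test.

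Most H3 genes of the clusters encode H3.1 or H3.2, the forms deposited during replication, and H3-4 encodes a testis form. H3C10 (ENSG00000278828, an H3.1 gene, chromosome 6, 27810064 to 27811300, plus strand) was the most abundant in ARV-825 libraries. It measured 107, 111 and 111 FPKM in ARV-825 libraries, against 1.71, 1.41 and 1.40 FPKM in DMSO libraries. Its log2 fold change of 5.47 ± 0.0563 was the largest among H3 genes (SE, limma adjusted p = 2.93e-08), 72.9-fold between mean FPKM values. H3C2, also H3.1, measured 38.0, 32.7 and 33.4 FPKM in ARV-825 libraries, against 0.543, 0.848 and 0.482 FPKM in DMSO libraries (log2 fold change 4.46 ± 0.0983).

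H3C13 encodes H3.2 and lies on chromosome 1. It measured 15.0, 17.0 and 20.1 FPKM in ARV-825 libraries, against 0.950, 0.565 and 0.121 FPKM in DMSO libraries, with a wide spread over 12 fragments in the DMSO libraries (log2 fold change 3.60 ± 0.205). Its coding sequence is 98.8% identical to that of H3-7, so the sharing of fragments between these copies is uncertain. H3C6 measured 12.1, 13.2 and 15.0 FPKM in ARV-825 libraries, against 0.791, 0.846 and 0.943 FPKM in DMSO libraries (log2 fold change 2.95 ± 0.0807). In all 4 of these H3 genes the lowest ARV-825 library stood well above the highest DMSO library.

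On log2(FPKM + 1), the smallest changes among H3 genes tested were those of H3C8 and H3C7. H3C8 measured 2.53, 2.46 and 2.49 FPKM in ARV-825 libraries, against 0.139, 0.120 and 0.0822 FPKM in DMSO libraries (log2 fold change 1.65 ± 0.0768). The added 1 shrinks the change of low genes. Between mean FPKM values H3C8 was 21.9-fold higher, above H3C6 at 15.6-fold and H3C12 at 15.1-fold. H3C7 measured 1.17, 1.78 and 0.998 FPKM in ARV-825 libraries, against 0.407, 0.707 and 0.964 FPKM in DMSO libraries. The 2 groups of H3C7 nearly touched, its log2 fold change was 0.45 ± 0.172 (limma adjusted p = 0.0465), and in 13 of 18 alternatives it missed the threshold, with adjusted p from 0.0524 to 0.153. H3C7 is thus the H3 gene tested whose change stood nearest to the spread between libraries.

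H3C1 and H3C12 rose by 2.39 and 2.45 on the log2 scale, which completes the 8 H3 genes tested. On fragments, H3C1 was 37.5-fold higher (95% counting interval 12.4 to 185), with 90 fragments in ARV-825 libraries and 3 in DMSO libraries. Of the exons of H3C12, 44.6% lie within H2AC17 on the same strand, so its fragments may be shared with that H2A gene. The other 7 H3 genes were too low for the test. H3C14 and H3C15, whose coding sequences are identical, had 101 and 85 fragments in ARV-825 libraries against 1 and 2 in DMSO libraries. H3-4 averaged 1.04 FPKM in ARV-825 libraries and 0.404 FPKM in DMSO libraries without overlap, while H3C11 overlapped between groups. H3C3 had 1 fragment in all, and H3C4 and H3-7 were listed at 0 throughout. H3C4 lies wholly within the exons of another gene on its strand, ENSG00000282988, which averaged 3.63 FPKM in ARV-825 libraries and 0.0493 FPKM in DMSO libraries. Of H3-7, 99.5% lies within the exons of ENSG00000273213 on its strand, which had 3 fragments in ARV-825 libraries and 0 in DMSO libraries.

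**Figure D2:**
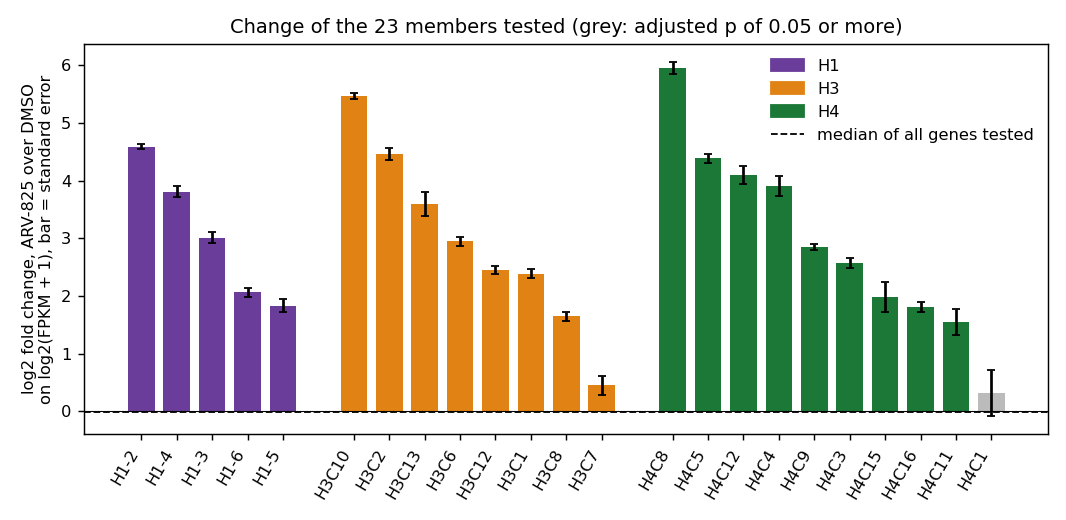
Log2 fold change of ARV-825 over DMSO on log2(FPKM + 1) for the 23 members tested, by family, with bars for the standard error of limma and a dashed line at the median of all genes tested. The columns run from 5.95 for H4C8 down to 0.32 for H4C1, in grey, which did not pass at an adjusted p under 0.05.

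H4 genes encode nearly the same protein from many copies that differ in their bases. Coding sequences of equal length were 79.2% to 100% identical over 91 pairs of H4 genes, with a median of 83.7%. H4C8 (ENSG00000158406, chromosome 6, 26277609 to 26285638, minus strand) had the largest change of all members tested on log2(FPKM + 1). It measured 97.7, 117 and 113 FPKM in ARV-825 libraries, against 1.03, 0.564 and 0.756 FPKM in DMSO libraries. That is a log2 fold change of 5.95 ± 0.109 (SE, limma adjusted p = 1.16e-07) and 139-fold between mean FPKM values. Its promoter and hairpin are printed above.

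H4C5, H4C12 and H4C4 followed. H4C5 measured 27.7, 26.0 and 27.7 FPKM in ARV-825 libraries, against 0.188, 0.469 and 0.400 FPKM in DMSO libraries (log2 fold change 4.38 ± 0.0845). H4C12 measured 26.8, 28.1 and 30.0 FPKM in ARV-825 libraries, against 0.358, 0.745 and 1.11 FPKM in DMSO libraries (log2 fold change 4.10 ± 0.151). H4C4 measured 16.7, 20.5 and 19.3 FPKM in ARV-825 libraries, against 0, 0.559 and 0.476 FPKM in DMSO libraries (log2 fold change 3.90 ± 0.173). The coding sequences of H4C12 and H4C11 are identical, and the transcript of H4C12 is annotated as coding sequence alone, so how fragments were divided between these genes is uncertain.

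H4C9 was the H4 gene with the highest level in DMSO cells. It measured 51.8, 50.9 and 52.2 FPKM in ARV-825 libraries, against 6.34, 5.93 and 6.70 FPKM in DMSO libraries. Its log2 fold change of 2.85 ± 0.0464 (SE, limma adjusted p = 8.97e-08) corresponds to 8.17-fold between mean FPKM values. Replicates agreed closely in both groups.

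On log2(FPKM + 1), H4C11 and H4C1 had the smallest changes among H4 genes tested. H4C11 measured 2.57, 1.61 and 3.66 FPKM in ARV-825 libraries, against 0.299, 0.311 and 0 FPKM in DMSO libraries (log2 fold change 1.56 ± 0.224, limma adjusted p = 5.67e-04). Between mean FPKM values H4C11 was 12.8-fold higher, above H4C9 at 8.17-fold and H4C16 at 6.11-fold. H4C1 measured 1.98, 1.49 and 0.657 FPKM in ARV-825 libraries, against 1.61, 0 and 1.43 FPKM in DMSO libraries. Its groups overlapped and its log2 fold change of 0.32 ± 0.401 did not pass (limma adjusted p = 0.489). Without DMSO replicate 2, which had no fragment of H4C1, the log2 fold change was -0.13.

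H4C3, H4C15 and H4C16 complete the 10 H4 genes tested and rose by 2.58, 1.98 and 1.81 on the log2 scale. H4C16, alone on chromosome 12, averaged 5.97 FPKM in ARV-825 libraries and 0.977 FPKM in DMSO libraries, 6.11-fold higher. H4C15 stood at 1.92, 2.52 and 5.17 FPKM in ARV-825 libraries, with replicate 3 apart, against 0.0289, 0 and 0 FPKM in DMSO libraries. By limma-voom on genes of at least 10 fragments, H4C15 rose by 7.09 on 1 DMSO fragment, where H4C8 rose by 7.05. Of the 5 H4 genes not tested, H4C14, H4C2 and H4C7 lay higher in ARV-825 libraries without overlap, and H4C13 and H4C6 overlapped. H4C14 shares its coding sequence with H4C15 and had 165 fragments in ARV-825 libraries against 1 in DMSO libraries. H4C7, a divergent H4 copy, had 9 fragments in ARV-825 libraries and 0 in DMSO libraries, at least 3.75-fold higher than the floor.

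Within a family, the share of the leading gene separated the groups for H3 and H4, while for H1 the groups overlapped. Among H1 fragments, H1-2 held 88.9% ± 0.873 in ARV-825 libraries and 88.5% ± 1.88 in DMSO libraries (SD, n = 3 each), which overlapped (exact permutation p = 0.8). Among H3 fragments, H3C10 held 64.0% ± 1.06 in ARV-825 libraries and 30.6% ± 3.16 in DMSO libraries, while H3C6 held 16.9% ± 1.29 in ARV-825 libraries and 37.9% ± 3.61 in DMSO libraries. Among H4 fragments, H4C8 held 60.7% ± 1.90 in ARV-825 libraries and 12.1% ± 3.11 in DMSO libraries. H4C9 held 17.2% ± 1.28 of H4 fragments in ARV-825 libraries and 59.0% ± 1.72 in DMSO libraries. For these 4 H3 and H4 genes the libraries of the groups did not overlap, and each exact permutation test gave p = 0.1, the smallest possible. The DMSO shares rest on few fragments, 103 to 123 for H3 and 217 to 298 for H4 per library.

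**Figure D3:**
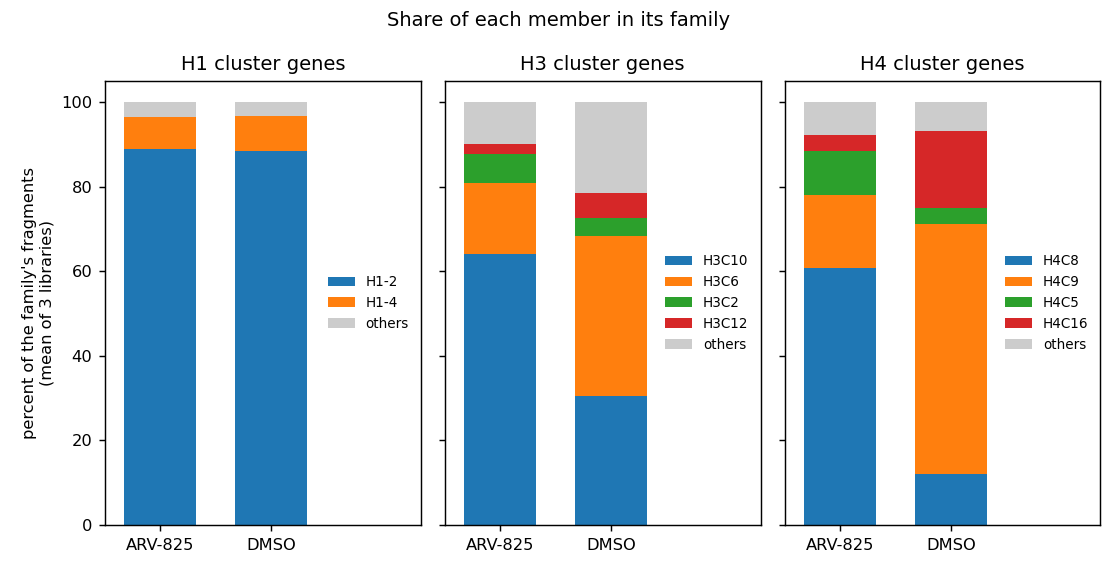
Share of each member in the fragments of its family (percent, mean of 3 libraries), with ARV-825 left of DMSO for H1, H3 and H4, and members under 5% in both groups pooled as others. H3C10 and H4C8 held 64.0% and 60.7% in ARV-825 libraries, against 30.6% and 12.1% in DMSO libraries, and H1-2 held 88.9% in ARV-825 libraries and 88.5% in DMSO libraries.

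Members with higher ARV-825 levels lay in each cluster. Of 20 members between 26017085 and 26285638 on chromosome 6, ARV-825 lay above DMSO without overlap in 16, and of the 14 tested 13 rose (median log2 fold change 2.98). Of 8 members between 27138588 and 27893106 on that chromosome, the groups did not overlap in 6, and the 6 tested rose, with a median of 2.65. On chromosome 1, between 149813271 and 149861210, the groups did not overlap in 5 of 5 members, and the 2 tested rose. Among all 34682 genes above 0 in at least 1 library, 26.2% had every ARV-825 library above every DMSO library. A DMSO mean under 1 FPKM, with entry to the test through ARV-825 values alone, held for 11 of the 14 tested, for 4 of the 6 and for 2 of the 2, so these calls are to be read against the 85.6% of such genes called higher. Between the first and last member on chromosome 6 lie 62 genes that are not cluster histone genes, of which 20 were tested, 13 rose, 4 fell and 3 did not pass (median 0.98 on the log2 scale). Over all genes tested, 37.0% rose and 40.2% fell. Of the 20, 10 had a DMSO mean under 1 FPKM. ENSG00000282988, whose exons hold H3C4, was among those that rose. The other 14 protein-coding genes gave 8 tested, of which 2 rose, 3 fell and 3 did not pass, with a median of 0.01. The 47 that are not protein-coding gave 11 tested, of which 10 rose and 1 fell, with a median of 2.44. Of these 11, 3 were histone pseudogenes, and 9 had a DMSO mean under 1 FPKM.

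Members were also grouped by how far their annotated transcript runs past the stop codon. In 19 members it ends at the stop codon, and the 11 of these tested had a median log2 fold change of 3.01. In 5 members it runs 44 to 70 bases further, and the 4 tested had a median of 2.32. In 12 members it runs 126 to 1908 bases further, and the 8 tested had a median of 2.90. In the last set ARV-825 lay above DMSO without overlap in 12 of 12 members, in the middle set in 5 of 5, and in the first in 12 of 19. The first set includes H3C4 and H3-7, which were listed at 0 throughout. Of all genes above 0 in at least 1 library, 26.2% lay above in this way. The medians rest on the 23 members tested, of which 18 had a DMSO mean under 1 FPKM and entered through ARV-825 values. No test was made between these sets, and length past the stop codon also sets how many fragments an annotation can collect.

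H2A and H2B, the partners of H3 and H4 in the nucleosome, moved with them. Of 35 cluster H2A and H2B genes, 27 were tested and 27 rose (median 3.19 on the log2 scale), where 37.0% of all genes tested did. Of the 27, 18 had a DMSO mean under 1 FPKM and entered through ARV-825 values, and 85.6% of all such genes were called higher. The other 9 rose as well. With no filter, 30 of 32 rose, against 20.7% of all genes. Per 1000000 fragments in genes they numbered 1670 ± 32.1 in ARV-825 libraries and 65.2 ± 0.908 in DMSO libraries (SD, n = 3 each), 25.6-fold higher. H2BC21 averaged 233 FPKM in ARV-825 libraries and 1.20 FPKM in DMSO libraries, and H2BC5 averaged 196 FPKM in ARV-825 libraries and 4.09 FPKM in DMSO libraries.

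Replacement variants, most of which are made outside S phase too from mRNA with a tail, were mixed. Of 12 listed, 9 were tested, 4 rose, 3 fell and 2 did not pass, with a median of 0.10. These counts are near the shares over all genes tested, of which 37.0% rose and 40.2% fell. H3-3B, a gene for H3.3, averaged 162 FPKM in ARV-825 libraries and 61.7 FPKM in DMSO libraries (log2 fold change 1.38 ± 0.0302). H1-10 averaged 82.0 FPKM in ARV-825 libraries and 45.3 FPKM in DMSO libraries. CENPA, the centromeric H3, averaged 3.91 FPKM in ARV-825 libraries and 13.4 FPKM in DMSO libraries, and H2AZ1 averaged 102 FPKM in ARV-825 libraries and 217 FPKM in DMSO libraries.

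Genes that copy DNA went the other way. All 20 DNA replication genes listed fell, with a median log2 fold change of -1.84, where 40.2% of all genes tested fell. CDC45, part of the replicative helicase, averaged 4.03 FPKM in ARV-825 libraries and 24.6 FPKM in DMSO libraries. CDT1, which licenses origins, averaged 6.28 FPKM in ARV-825 libraries and 35.8 FPKM in DMSO libraries. GINS1 averaged 2.69 FPKM in ARV-825 libraries and 17.6 FPKM in DMSO libraries, and MCM5 averaged 8.04 FPKM in ARV-825 libraries and 38.8 FPKM in DMSO libraries. Of 14 histone chaperones and related factors, 3 rose and 9 fell, with a median of -0.45, where 37.0% of all genes tested rose and 40.2% fell. Both large CAF-1 subunits, which place new H3 and H4 on copied DNA, were lower, CHAF1A at 9.94 FPKM in ARV-825 libraries and 39.4 FPKM in DMSO libraries and CHAF1B at 2.39 FPKM in ARV-825 libraries and 7.78 FPKM in DMSO libraries. ASF1B, which hands H3 and H4 to CAF-1, averaged 22.8 FPKM in ARV-825 libraries and 58.5 FPKM in DMSO libraries. CABIN1, of the HIRA complex for H3.3, averaged 31.5 FPKM in ARV-825 libraries and 13.6 FPKM in DMSO libraries (log2 fold change 1.15 ± 0.0483).

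The factors that make, process or break down histone mRNA were measured as well. Of 21 listed, 4 rose, 14 fell and 3 did not pass, with a median of -0.25, where 37.0% of all genes tested rose and 40.2% fell. CDK2, the kinase that with cyclin E activates NPAT, averaged 7.71 FPKM in ARV-825 libraries and 27.1 FPKM in DMSO libraries, and CCNE1, a cyclin E, averaged 1.11 FPKM in ARV-825 libraries and 3.77 FPKM in DMSO libraries. LSM10 and LSM11, proteins of the U7 particle that cuts histone transcripts, fell by 0.99 and 0.98 on the log2 scale. LSM10 averaged 17.0 FPKM in ARV-825 libraries and 34.8 FPKM in DMSO libraries, and LSM11 averaged 0.905 FPKM in ARV-825 libraries and 2.76 FPKM in DMSO libraries. SLBP averaged 35.8 FPKM in ARV-825 libraries and 54.1 FPKM in DMSO libraries, a log2 fold change of -0.58 ± 0.0339. NPAT, the coactivator of histone genes, averaged 3.93 FPKM in ARV-825 libraries and 4.31 FPKM in DMSO libraries, a log2 fold change of -0.11 ± 0.0661 that did not pass (limma adjusted p = 0.174). HINFP, which reads the H4 element, averaged 4.26 FPKM in ARV-825 libraries and 2.28 FPKM in DMSO libraries (log2 fold change 0.68 ± 0.0625).

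Other RNAs that end without a tail were looked at beside the histones, since the kit selects for one. Of 27 identifiers listed, 9 were tested, of which 6 rose, 1 fell and 2 did not pass, with a median of 2.47, where 37.0% of all genes tested rose. Of the 9, 3 had a DMSO mean under 1 FPKM and entered through ARV-825 values, and 85.6% of all such genes were called higher. Of the other 6, 3 rose. With no filter, 5 of 16 rose, against 20.7% of all genes, with a median of 0.47, and 11 of the 27 were at 0 in all libraries. SNORD3A, the U3 RNA, averaged 22.3 FPKM in ARV-825 libraries and 1.19 FPKM in DMSO libraries. RNU5A-1, the U5 RNA of the spliceosome, averaged 19.9 FPKM in ARV-825 libraries and 1.74 FPKM in DMSO libraries. RNU4-2 and RNU4-1, copies of U4, averaged 6.59 and 5.62 FPKM in ARV-825 libraries and had no fragment in the DMSO libraries. SNORA73B averaged 8.56 FPKM in ARV-825 libraries and 21.1 FPKM in DMSO libraries. RN7SL2, the abundant RNA of the signal recognition particle, averaged 1178 FPKM in ARV-825 libraries and 1402 FPKM in DMSO libraries, and did not pass (limma adjusted p = 0.237). The sum over the list was 951 to 1638 FPKM in ARV-825 libraries and 1330 to 1614 FPKM in DMSO libraries, so the groups overlapped. The part of tail selection in the histone values was not tested.

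**Figure D4:**
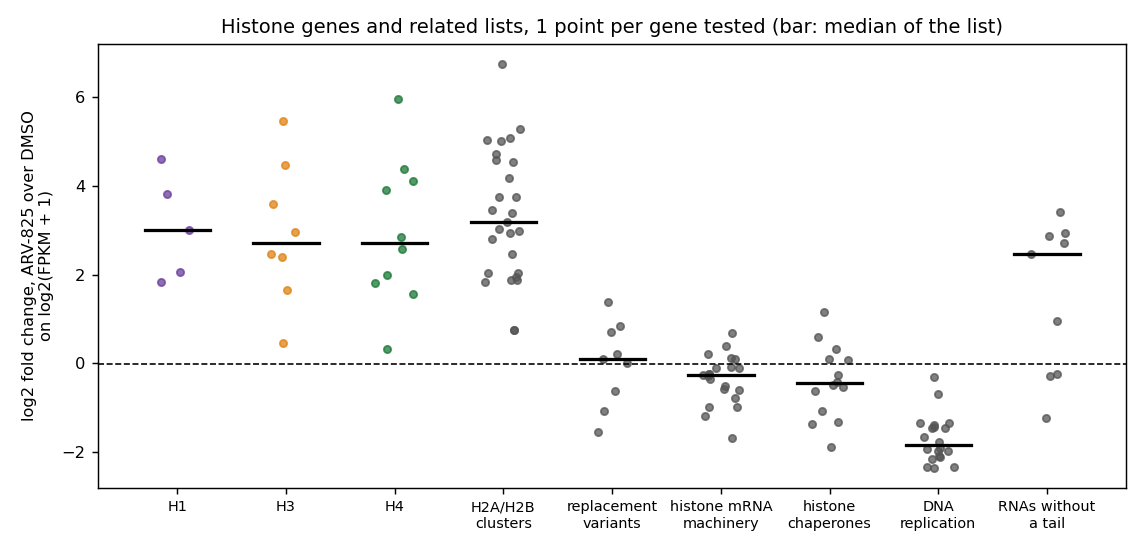
Log2 fold change of ARV-825 over DMSO on log2(FPKM + 1) for each gene tested in the 3 families and 6 related lists, with a bar at the median of each list and a dashed line at the median of all genes tested. Medians were 3.01 for H1, 2.70 for H3, 2.71 for H4 and 3.19 for H2A and H2B, against -1.84 for DNA replication.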

How the data were processed

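RNA-seq of HGC27 cells was analysed in 3 ARV-825 and 3 DMSO libraries. The authors deposited FPKM values for 58735 genes. The submitters' processing notes name the aligner HISAT2 2.0.5 and give mm10, a mouse build, but every identifier was human and found in GENCODE 29 (GRCh38), which gave exon lengths, coordinates and transcripts. How fragments were counted is not stated in those sources. FPKM times exon length, divided by a unit fitted to each library, gave whole fragments within 0.05 for 100% of values in every library. limma 3.58.1 in R 4.3.3 (lmFit, eBayes with trend) compared the groups on log2(FPKM + 1), a pseudocount of 1 that understates the change of low genes, for the 13442 genes whose FPKM averaged 1 or more. Thresholds were an adjusted p of 0.05 and an absolute log2 fold change of 1. The test was tried on simulated data, with changes set only in genes whose DMSO mean lay above the filter. That trial does not cover members with lower DMSO means.

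The members and lists were chosen with earlier results of these data known. Values per library are given for all H1 genes, the 4 H3 and 4 H4 genes with the largest change past both thresholds, the 2 of each with the highest ARV-825 mean and the 2 tested with the smallest change. Up to 4 genes per list with the largest change are named. Other members with values, the pseudogenes, ENSG00000282988, SLBP, NPAT, HINFP, SNORA73B, RN7SL2 and the mesenchymal markers were added after their values were seen. Against 0 fragments, folds used a floor of 3 fragments over the group. With 1 to 3 DMSO fragments, an exact 95% interval covers counting error only. Alternatives covered pseudocount, filter, scaling, trend, limma-voom, replicate block and each replicate left out. limma-voom on all genes with at least 10 fragments was added after the data were examined. Promoters came from RefSeq (GRCh38.p14).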

Additional observations from a re-analysis of the deposited data

How the results depend on the processing

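The number of members that rose stayed between 21 and 28 at the adjusted p and between 21 and 26 past both thresholds under every alternative run, and no member was called lower in any of them. H3C7 missed the threshold in 13 of 18 alternatives. Over the fits with a replicate left out, the log2 fold change of H4C1 ran between -0.13 without DMSO replicate 2 (limma adjusted p = 0.670) and 0.57 without DMSO replicate 1. It was 0.32 with all libraries and 0.998 by limma-voom on genes of at least 10 fragments (limma-voom adjusted p = 0.280). The members' median log2 fold change of 2.85 became 3.31 on TPM values, 2.02 with a filter of 0.1 FPKM, 1.91 with no filter and also 1.91 over all members above 0 in at least 1 library. It was 4.67 and 4.47 with pseudocounts of 0.01 and 0.1, 4.58 with limma-voom on fragments and 4.51 with limma-voom on genes of at least 10 fragments. A smaller pseudocount shrinks low genes less by construction. Over all genes, 1184 were higher and 1630 lower past both thresholds. With a pseudocount of 0.01, 1779 were higher. With limma-voom on genes of at least 10 fragments, 4053 were higher and 4346 lower, and with limma-voom on fragments 2536 were lower. On TPM values 2978 were lower past both thresholds, and at the adjusted p 3176 were higher and 7214 lower, against 4977 and 5405 on FPKM. On TPM values the median over all genes was -0.31, against -0.02 on FPKM, and 21 members still rose. With values scaled without mitochondrial genes, 22 members rose and their median was 2.93. With the replicate number as a block, 21 members rose and the median stayed at 2.85, with only H3C7 lost (limma adjusted p = 0.0551). Libraries with the same number deviated together only weakly (correlations 0.0042, 0.0414 and 0.0378), though each correlated best with its own number, so they were treated as sharing only a number. Members with few DMSO fragments are limited by depth.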

Other observations

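Pseudogenes of the cluster histone genes were not part of the lists above, and 17 of the 19 lie on chromosomes 1 and 6, as most members do. Of the 19, 15 were above 0 in at least 1 library. For 9 of them every ARV-825 library lay above every DMSO library, and for 1, H3C9P, every one lay below. Of all 34682 genes above 0, 26.2% lay above in this way. The 5 that were tested rose, but 4 of them had a DMSO mean under 1 FPKM and entered the test through ARV-825 values, and 85.6% of all such genes were called higher. H2BC20P on chromosome 1 averaged 68.6 FPKM in ARV-825 libraries and 1.65 FPKM in DMSO libraries (log2 fold change 4.71 ± 0.0672, SE). H2BC19P, which overlaps H2BC20P on the opposite strand, averaged 23.7 FPKM in ARV-825 libraries and 0.826 FPKM in DMSO libraries. The kit type does not mark the strand, so these pseudogenes may share fragments. H4C10P averaged 6.13 FPKM in ARV-825 libraries and 0.135 FPKM in DMSO libraries. H2AC9P and H2BC16P averaged 18.6 and 3.32 FPKM in ARV-825 libraries and had no fragment in DMSO libraries. H1-12P was not tested and had 46 fragments in ARV-825 libraries and 0 in DMSO libraries. H3C9P averaged 0.0546 FPKM in ARV-825 libraries and 0.445 FPKM in DMSO libraries, on 1 and 10 fragments. Fragments of such copies can be shared with the genes they resemble.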
